A study of Mus musculus with 8 samples.

Results

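Secreted and membrane-bound proteases that cut the extracellular matrix, together with their inhibitors, were followed in cortical bone of mice in which the fibroblast growth factor receptor gene Fgfr1 was targeted in bone cells. The members were 9 genes given by name (Mmp13, Mmp14, Adam12, Adam8, Adamts1, Adamts5, Fap, Reck and Htra1) and every other gene of the table whose symbol begins with Mmp, Adam, Adamts or Timp and a digit. They came to 25 of the 1994 genes in the table. They comprised 8 matrix metalloproteinases, 2 ADAM proteases, 5 ADAMTS proteases that cut proteoglycans, 2 that trim procollagen and 3 other ADAMTS proteases. The remaining members were 2 serine proteases and 3 inhibitors. Cathepsins were left out by the rule and are given with the other protease systems.

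Both groups were 16-week-old mice that ate chow with tamoxifen at 400 mg/kg for 4 weeks, starting at 12 weeks of age. Control mice carried the floxed receptor gene (Fgfr1f/f), and their genotype label names no Cre. FGFR1-CKO mice carried DMP1-CreER as well, a Cre recombinase that tamoxifen switches on and that the Dmp1 promoter drives. This promoter is used by late osteoblasts and by osteocytes. Presence of Cre and loss of the receptor therefore cannot be told apart. RNA came from the femoral shaft after its marrow had been rinsed out. The submitters sequenced 6 Control and 7 FGFR1-CKO samples and kept the 4 Controls with most Fgfr1 and the 4 FGFR1-CKO samples with least, so each p-value below is conditional on that choice. The genes of the table were likewise kept by the submitters because they differed (1265 lower and 729 higher in FGFR1-CKO), and all 25 members had passed that selection.

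The organic part of bone matrix is mostly fibrillar collagen, which only a few enzymes can cut at neutral pH, among them the collagenases Mmp13 and Mmp14. Metalloproteinases are made as inactive precursors, are often activated by other proteases at the cell surface, and are held in check by tissue inhibitors of metalloproteinases (Timp proteins) and by the membrane-anchored inhibitor Reck. In bone, osteoblasts and osteocytes make many of these enzymes and use them to remodel the collagen around them, whereas other members of the same families are known from white blood cells.

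Library totals recovered from the deposited values ran from 9642436 to 11094287 reads, and between 60 and 8625 reads lay behind each value of a member. Fgfr1 averaged 594 CPM (SD 71.3, n = 4) across Control libraries against 318 CPM (SD 32.1, n = 4) across FGFR1-CKO libraries, where CPM is a read count scaled to all reads of the library. This is a log2 fold change of -0.90 that the choice of libraries partly set. All 18 osteoblast markers and 11 of 14 osteocyte markers were listed. Markers of blood cells were listed too, 18 of 20 for the erythroid list and 9 of 18 for the neutrophil list. Control replicate 4 stood apart by its osteoclast markers, whose mean log2(CPM + 1) was 7.05 against 5.99 to 6.23 in the other Controls. FGFR1-CKO replicate 3 stood apart by the share of its reads in the table, 29.0% against 24.2% to 24.8% in the other FGFR1-CKO libraries. Counts of genes that rose or fell are also given without both of these libraries where they differ.

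Most of the listed matrix proteases and all 3 listed inhibitors had lower mean levels in FGFR1-CKO bone. Family members that did not differ were not in the table. At a limma adjusted p under 0.05 (Benjamini-Hochberg over the 1994 genes) and a log2 fold change at or beyond 0.5 in either direction, 17 of the 25 members fell, 2 rose (Adam8 and Mmp25) and 6 did not pass. Of all listed genes, 38.4% fell and 36.6% rose by the same rule. The 6 that did not pass (Mmp28, Adamts1, Adamts5, Adamts7, Adamts17 and Reck) lay between -0.49 and -0.42 with adjusted p of at most 0.00395, so the fold and not the p kept them out. At any fold change 23 members were lower, where 62.9% of the table was lower and 36.6% higher. The median log2 fold change of the 25 members was -0.68, and that of the table was -0.43. After rescaling by size factors, which lowered the median of all listed genes by 0.11, 23 members fell and 2 rose, against 58.0% and 32.6% of the table. With both libraries that stood apart left out, 18 members fell and 2 rose, against 33.6% and 36.0% of the table.

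The groups did not overlap for 24 of the 25 members, in a table where they did not overlap for 90.5% of genes (54.9% with FGFR1-CKO below and 35.6% with FGFR1-CKO above). Reck was the exception. For the other 24 the exact 2-sided permutation p was 0.0286, the smallest that 4 against 4 libraries can give. Summed over all members, the level was 3349 to 4047 CPM in the Control libraries and 2095 to 2316 CPM in the FGFR1-CKO libraries. Mmp13 alone made up 12.8% to 19.2% of that sum in Control and 9.44% to 11.4% in FGFR1-CKO. In bulk tissue, fewer cells that make a transcript and less of it per cell cannot be told apart.

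**Figure D1:**
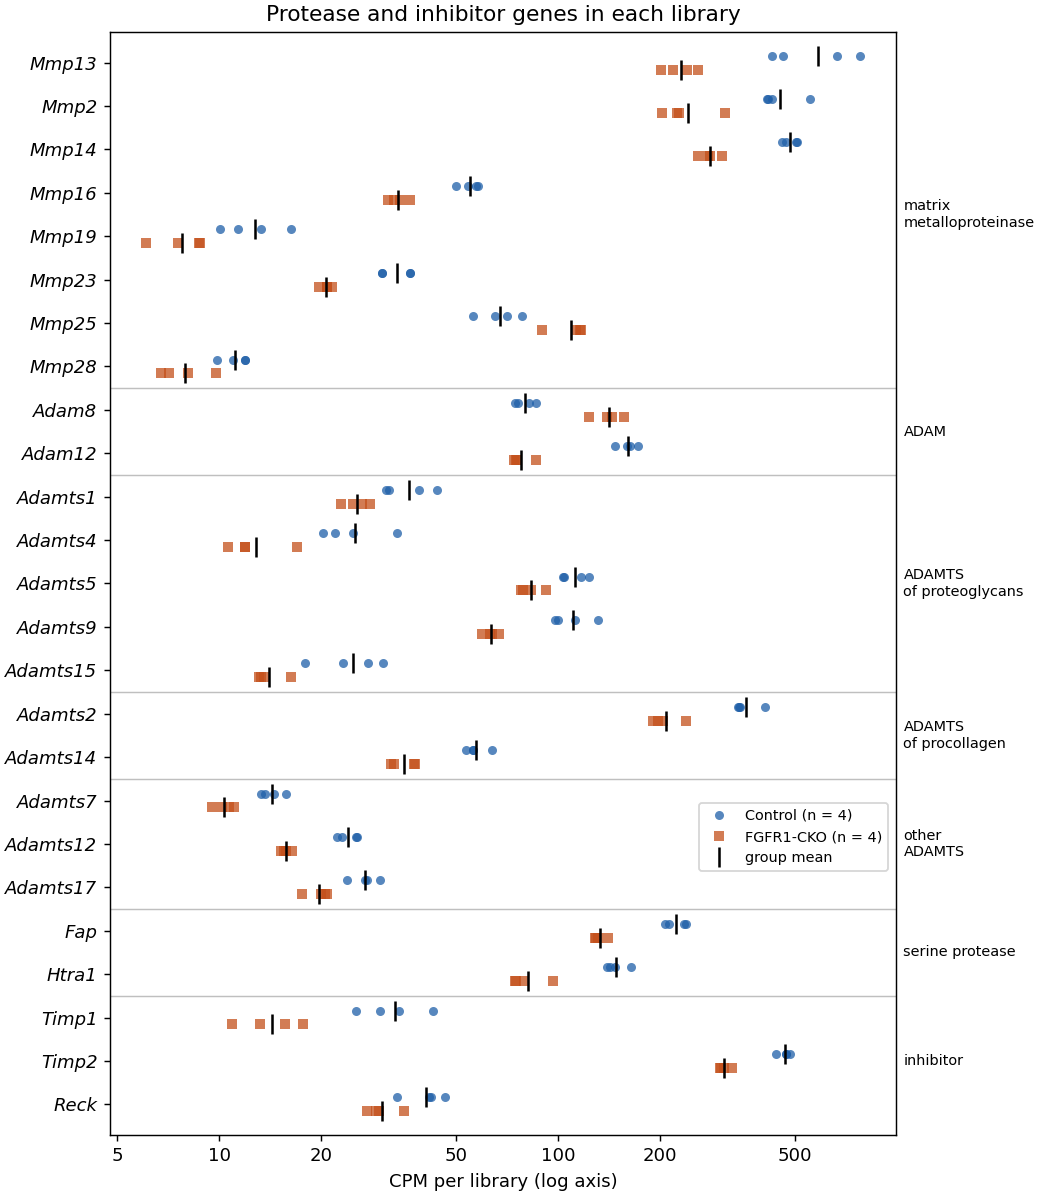
Level of each of the 25 genes in CPM on a log axis, grouped by role, with circles for the 4 Control libraries, squares for the 4 FGFR1-CKO libraries and bars for group means. The squares lie left of the circles for 22 genes, right of them for Adam8 and Mmp25, and overlap them for Reck.

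The members spanned a wide range of levels. Per kilobase of exon, Mmp13 had the highest Control mean at 218 CPM per kilobase, then Mmp2 at 134, Timp2 at 120 and Mmp14 at 81.3 CPM per kilobase. Htra1 followed at 51.5, Fap at 39.4, Adamts2 at 38.4 and Timp1 at 37.0 CPM per kilobase, and the lowest was Adamts12 at 2.20 CPM per kilobase. The Control libraries of neighbours in this order overlapped except between Timp2 and Mmp14, Mmp14 and Htra1, Htra1 and Fap, and Timp1 and Adam8. Overlap was judged over all Control libraries together. Whether Mmp13 exceeded Mmp2, or Mmp2 exceeded Timp2, within the same library was not tested.

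Among the metalloproteinases, 6 of 8 fell, 1 rose and 1 did not pass (7, 1 and 0 without both libraries that stood apart). Of all listed genes, 38.4% fell and 36.6% rose (33.6% and 36.0% without those libraries). Mmp13 (ENSMUSG00000050578, mm10 chromosome 9, 7272514 to 7283331), a secreted collagenase known in bone from osteoblasts, osteocytes and growth plate cartilage, had the largest decrease of all members. It measured 461, 777, 428 and 668 CPM in Control replicates 1 to 4. In FGFR1-CKO replicates 1 to 4 it measured 202, 219, 240 and 259 CPM. The Controls were uneven, with replicates 2 and 4 high, and all lay above all FGFR1-CKO libraries. Its log2 fold change was -1.30 ± 0.17 (standard error; limma adjusted p = 4.35e-05), and 0.301% of the table had a lower value. Without Control replicate 2 it was -1.15, the smallest change when any 1 library was left out.

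Mmp14 (mm10 chromosome 14, 54431612 to 54445364) is a membrane-bound collagenase that also activates the Mmp2 precursor at the cell surface. Its 4 Control values were 508, 502, 457 and 470 CPM, and its 4 FGFR1-CKO values were 281, 259, 304 and 276 CPM. Both groups were tight and well apart, and the log2 fold change was -0.79 ± 0.07 (standard error; limma adjusted p = 8.36e-06). Mmp2, a gelatinase that cuts denatured collagen, measured 428, 555, 415 and 412 CPM in Control and 228, 203, 312 and 225 CPM in FGFR1-CKO. Control replicate 2 and FGFR1-CKO replicate 3 were each the high library of their group, and the groups did not overlap. Its log2 fold change was -0.91 ± 0.14 (standard error; limma adjusted p = 9.68e-05).

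The less abundant metalloproteinases that fell were Mmp16, Mmp23 and Mmp19. Mmp16, a membrane-bound relative of Mmp14, went from 54.9 ± 3.74 to 33.7 ± 2.19 CPM (SD, n = 4 each; log2 fold change -0.68). Mmp23, an unusual membrane-anchored enzyme that lacks the hemopexin domain of most of the family, went from 33.4 ± 3.68 to 20.7 ± 0.746 CPM (SD, n = 4 each; -0.66). Mmp19, a secreted enzyme that cuts basement membrane proteins, went from 12.7 ± 2.72 to 7.77 ± 1.25 CPM (SD, n = 4 each; -0.64), from 60 to 181 reads per library. Mmp28, a secreted enzyme known from skin and nerve, went from 11.1 ± 0.973 to 7.92 ± 1.38 CPM (SD, n = 4 each) from 65 to 129 reads per library, and its log2 fold change of -0.45 did not pass the fold threshold. For Mmp28, FGFR1-CKO replicate 3 was barely below the lowest Control, at 9.80 against 9.82 CPM.

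Adam8 and Mmp25 were the members that rose, and both are known mainly from white blood cells. Adam8 (ENSMUSG00000025473, mm10 chromosome 7, 139978932 to 139992562) is a membrane metalloproteinase of leukocytes and osteoclasts that sheds adhesion molecules. It measured 82.1, 76.3, 85.8 and 74.4 CPM in Control and 139, 144, 123 and 157 CPM in FGFR1-CKO. The lowest FGFR1-CKO library lay well above the highest Control, with a log2 fold change of 0.81 ± 0.09 (standard error; limma adjusted p = 1.08e-05). Mmp25 (mm10 chromosome 17, 23628311 to 23645277) is a metalloproteinase held to the membrane of neutrophils by a lipid anchor. Its values were 78.1, 56.2, 70.6 and 65.2 CPM in Control and 116, 113, 89.5 and 117 CPM in FGFR1-CKO. FGFR1-CKO replicate 3 was low for its group but above every Control, and the log2 fold change was 0.68 ± 0.11 (standard error; limma adjusted p = 0.000198).

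Listed neutrophil, erythroid and B cell markers rose in the same libraries. All 729 higher genes of the table (36.6%) met the rule for a rise, so the sign alone settled each of these calls. The mean log2(CPM + 1) of the 9 neutrophil markers listed, of 18, was 8.35 to 8.66 in Control and 9.21 to 9.45 in FGFR1-CKO, a difference of 0.81. All 9 rose, and Olfm4 (1.82), Camp (0.86), S100a9 (0.73) and Cebpe (0.63) had the smallest adjusted p. The mean of the 18 listed erythroid markers was 7.14 to 7.56 in Control and 8.39 to 8.55 in FGFR1-CKO, and that of the 4 listed B cell markers was 3.01 to 3.73 and 4.01 to 4.57. The 8 listed osteoclast markers, another known source of Adam8, all fell, from a mean of 5.99 to 7.05 in Control to one of 5.18 to 5.73 in FGFR1-CKO. The 7.05 is Control replicate 4, and without both libraries that stood apart 6 of these markers fell, 2 did not pass, and their median log2 fold change was -0.66 instead of -0.95. The part of these markers in the rise of Adam8 and Mmp25 was not tested.

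Adam12, a membrane metalloproteinase of mesenchymal and muscle cells that sheds growth factors, moved opposite to Adam8. It measured 160, 172, 148 and 163 CPM in Control and 73.8, 75.8, 74.8 and 86.2 CPM in FGFR1-CKO. The levels fell to about the same value in 3 of the 4 FGFR1-CKO libraries, with replicate 4 slightly higher. The log2 fold change was -1.04 ± 0.08 (standard error; limma adjusted p = 5.45e-06), the smallest adjusted p of any member.

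The ADAMTS proteases are secreted relatives of the ADAM family that bind matrix through thrombospondin repeats. Of the 5 known to cut the proteoglycans aggrecan or versican, 3 fell and 2 did not pass, where 38.4% of all listed genes fell. Adamts4 measured 22.0, 33.4, 20.2 and 24.9 CPM in Control and 11.9, 10.6, 16.9 and 11.9 CPM in FGFR1-CKO, a log2 fold change of -0.91 ± 0.17 (standard error; limma adjusted p = 0.000337). Control replicate 2 and FGFR1-CKO replicate 3 were again high in their groups, as for Mmp2. Adamts9 went from 110 ± 15.4 to 63.3 ± 2.88 CPM (SD, n = 4 each; -0.78) and Adamts15 from 17.9 to 30.5 CPM over the Controls to 13.1 to 16.2 CPM over the FGFR1-CKO libraries (-0.76). Adamts5, the main aggrecanase of mouse cartilage, went from 112 ± 9.76 to 83.1 ± 6.56 CPM (SD, n = 4 each), and Adamts1 from 36.4 ± 6.17 to 25.5 ± 2.13 CPM (SD, n = 4 each). Their log2 fold changes of -0.42 and -0.49 stayed inside the fold threshold, although the groups did not overlap.

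Both procollagen N-proteinases fell. Adamts2 and Adamts14 remove the amino-terminal propeptide of fibrillar procollagens, a step that lets collagen assemble into fibrils. Adamts2 measured 340, 408, 341 and 345 CPM in Control and 197, 191, 239 and 204 CPM in FGFR1-CKO, a log2 fold change of -0.79 ± 0.09 (standard error; limma adjusted p = 1.92e-05). Apart from Control replicate 2 the Controls were nearly level, and no library crossed into the other group. Adamts14 went from 57.3 ± 4.47 to 35.1 ± 3.05 CPM (SD, n = 4 each; -0.69).

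Of the other ADAMTS proteases, Adamts12 fell, from 22.3 to 25.5 CPM over the Controls to 15.2 to 16.3 CPM over the FGFR1-CKO libraries (log2 fold change -0.58). Adamts7, which like Adamts12 is known to cut cartilage oligomeric matrix protein, went from 14.3 ± 1.10 to 10.3 ± 0.658 CPM (SD, n = 4 each; -0.43) and did not pass. Adamts17, known for its role in fibrillin microfibrils, went from 26.9 ± 2.44 to 19.7 ± 1.46 CPM (SD, n = 4 each; -0.43) and did not pass either.

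Both serine proteases fell. Fap, a membrane dipeptidyl peptidase and gelatinase of activated fibroblasts and marrow stromal cells, measured 212, 235, 207 and 238 CPM in Control and 129, 131, 141 and 129 CPM in FGFR1-CKO. Its groups were far apart for their spread, with a log2 fold change of -0.74 ± 0.07 (standard error; limma adjusted p = 8.85e-06). Htra1, a secreted protease that cuts matrix proteins and is known to restrain transforming growth factor signalling, measured 143, 164, 139 and 148 CPM in Control and 79.0, 74.8, 96.5 and 75.3 CPM in FGFR1-CKO. FGFR1-CKO replicate 3 was the highest of its group and remained below every Control, and the log2 fold change was -0.86 ± 0.09 (standard error; limma adjusted p = 1.25e-05).

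Of the inhibitors, Timp1 and Timp2 fell and Reck did not pass. Timp1, a secreted inhibitor of most metalloproteinases, measured 33.9, 42.6, 29.8 and 25.3 CPM in Control and 13.2, 10.9, 17.7 and 15.6 CPM in FGFR1-CKO. Its log2 fold change was -1.14 ± 0.17 (standard error; limma adjusted p = 8.26e-05), and 0.903% of the table had a lower value. Timp2, which both inhibits Mmp2 and helps Mmp14 to activate it, measured 484, 470, 441 and 470 CPM in Control and 308, 303, 301 and 327 CPM in FGFR1-CKO. The libraries of each group agree closely, and the log2 fold change was -0.59 ± 0.07 (standard error; limma adjusted p = 1.62e-05). Reck, the membrane-anchored inhibitor, measured 46.3, 41.6, 42.0 and 33.5 CPM in Control and 29.6, 27.3, 28.9 and 35.1 CPM in FGFR1-CKO. Control replicate 4 lay below FGFR1-CKO replicate 4, so the groups overlapped. Reck did not pass the fold threshold (log2 fold change -0.42 ± 0.11, standard error; exact 2-sided permutation p = 0.0571).

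The level of a protease relative to its inhibitor was compared within each library as the difference of log2(CPM + 1), for Mmp13, Mmp2 and Mmp14 against Timp1 and Timp2. The groups were apart in 1 of these 6 comparisons. Mmp13 minus Timp2 was -0.07, 0.72, -0.04 and 0.50 in Control and -0.61, -0.47, -0.33 and -0.33 in FGFR1-CKO, a difference of -0.71 (exact 2-sided permutation p = 0.0286, adjusted over the 6 comparisons 0.114). Its mean went from 0.28 ± 0.40 to -0.43 ± 0.13 (SD, n = 4 each), a shift that did not pass after adjustment. Since 0.0286 is the smallest p that 4 against 4 libraries can give, 1 such comparison among 6 could not have passed. The adjusted p therefore does not decide whether Mmp13 shifted relative to Timp2. The protease minus inhibitor differences are not per length, so their sign does not rank the genes: per kilobase of exon, FGFR1-CKO means were 86.0 CPM for Mmp13 and 79.4 CPM for Timp2. Mmp13 minus Timp1 was 4.09 ± 0.43 in Control and 3.93 ± 0.22 in FGFR1-CKO (SD, n = 4 each), and these groups overlapped (exact permutation p = 0.629, the same after adjustment). Mmp14 was lower relative to Timp2 by 0.20 and higher relative to Timp1 by 0.35, and Mmp2 lower relative to Timp2 by 0.32 and higher relative to Timp1 by 0.23, all with overlapping groups and adjusted exact permutation p of 0.114 to 0.137.

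**Figure D2:**
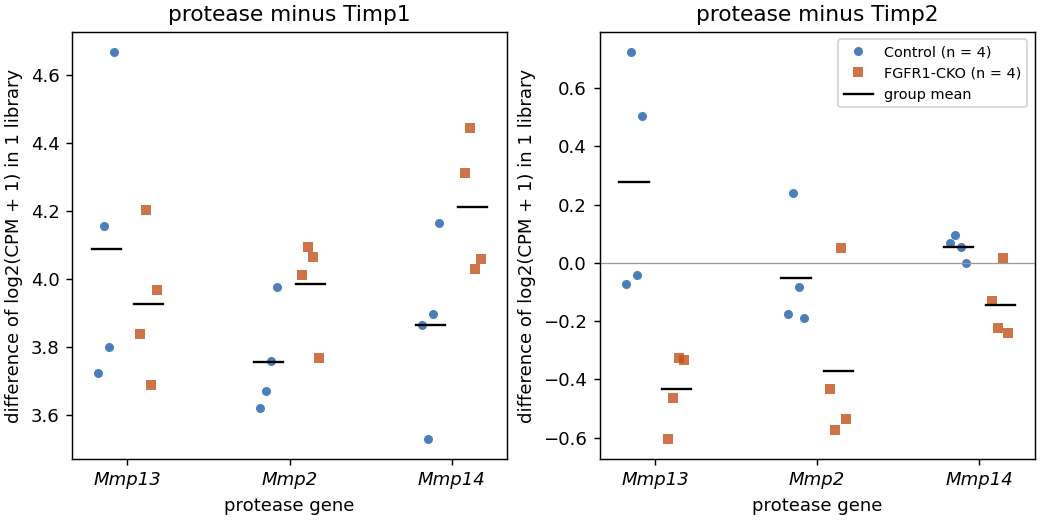
Difference of log2(CPM + 1) between a protease and Timp1 (left) or Timp2 (right) in each library, with circles for Control, squares for FGFR1-CKO (n = 4 each) and lines for group means; the vertical axes differ between panels. Groups separate for Mmp13 minus Timp2, from -0.07 to 0.72 in Control against -0.61 to -0.33 in FGFR1-CKO, and overlap in the other 5 comparisons.

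The decreases were next read against the osteoblast markers of the same libraries, of which 17 of 18 fell and 1 did not pass. Of all listed genes, 38.4% fell (33.6% without both libraries that stood apart). The mean log2(CPM + 1) of the 18 osteoblast markers was 9.26 to 9.39 in Control and 8.42 to 8.65 in FGFR1-CKO, a difference of -0.83, with Spp1 (-1.13), Dlx3 (-0.77), Cdh11 (-0.74) and Ibsp (-0.68) having the smallest adjusted p. That of the 11 osteocyte markers, of which 10 fell (9 without both libraries that stood apart), differed by -0.72, with Gja1 at -0.93 and Dmp1 at -0.62. After this osteoblast mean was subtracted in each library, 1 member was lower (Mmp13) and 7 were higher at a limma adjusted p under 0.05 and any fold change, against 0.552% and 61.1% of the table. With the fold threshold kept as well, 0 members fell, where 0.150% of the table fell. For Mmp13 the log2 difference on this scale was -0.47 (95% confidence interval -0.82 to -0.12, limma adjusted p = 0.0249). This call was lost without Control replicate 2 (-0.34, adjusted p = 0.0789), without Control replicate 4 (-0.37, 0.0548), without FGFR1-CKO replicate 1 (-0.43, 0.0652) and without both libraries that stood apart (-0.34, 0.0857). Without Control replicate 4, and without both libraries that stood apart, Timp1 was lower instead (-0.41 and -0.45, limma adjusted p = 0.0341 and 0.0153).

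The decreases of the other members lay closer to that of the osteoblast markers. Timp1 (-0.31), Adam12 (-0.21), Adamts4 (-0.08), Mmp2 (-0.08) and Htra1 (-0.03) were below the osteoblast mean with confidence intervals that include 0. On that scale 19 members had a positive difference, among them Mmp14 at 0.04 with a 95% confidence interval of -0.16 to 0.24. The 7 higher members were Adam8 (1.64), Mmp25 (1.51), Reck (0.41), Adamts5 (0.41), Adamts7 (0.40), Adamts17 (0.40) and Mmp28 (0.38). Fgfr1 itself differed by -0.07 on this scale (limma adjusted p = 0.635). Subtracting the osteoblast mean moves the median of the table by 0.83, so these values describe a relative level and not a rise or fall.

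**Figure D3:**
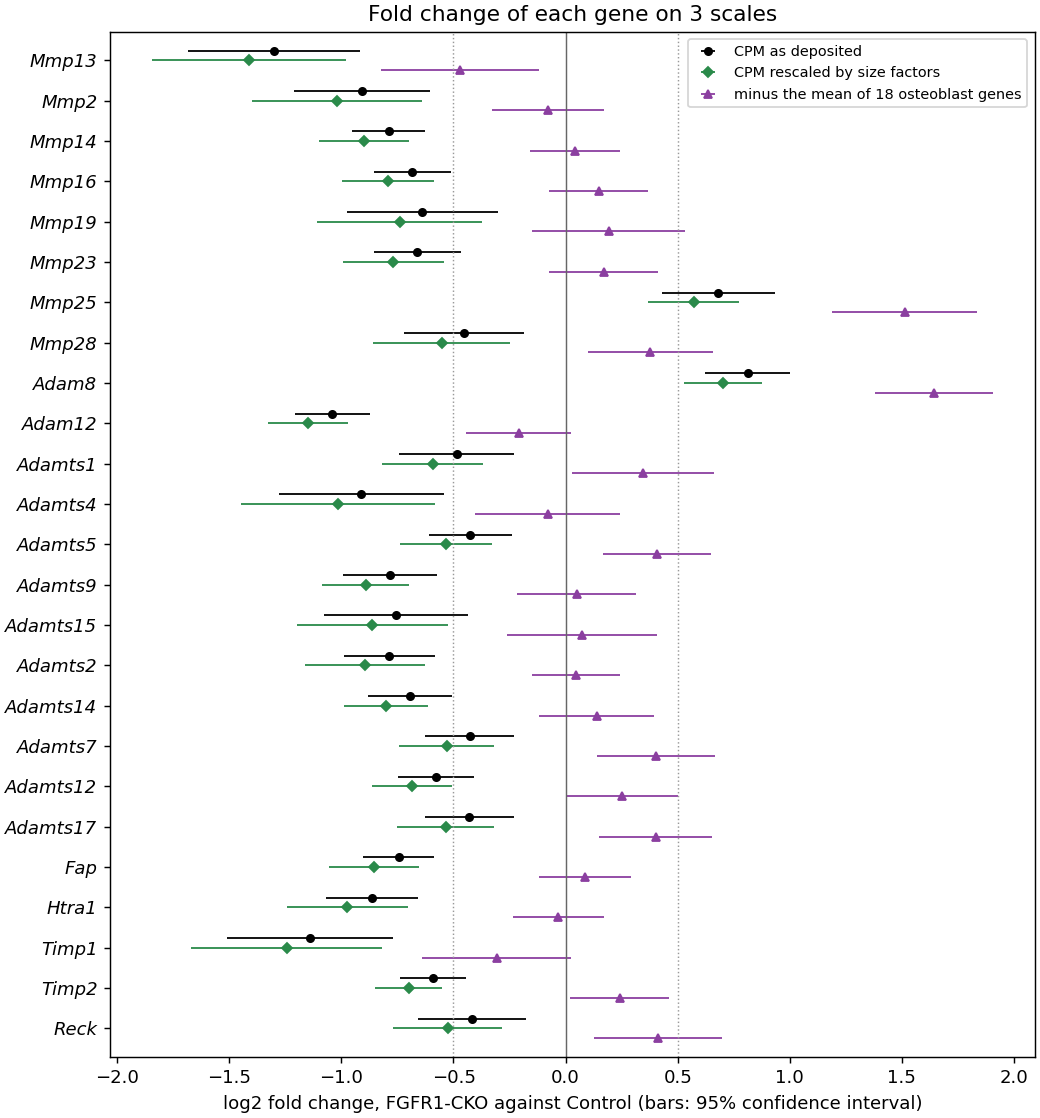
Log2 fold change of each gene, FGFR1-CKO against Control, with 95% confidence intervals, for CPM as deposited (circles), CPM rescaled by size factors (diamonds) and after subtraction of the mean of 18 osteoblast genes (triangles); dotted lines mark 0.5 in either direction. On the deposited and the rescaled CPM 23 genes lie left of 0, and on the osteoblast scale 6 do, of which the interval of Mmp13 leaves out 0.

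The libraries that were high or low differed from gene to gene. Control replicate 2 was the highest Control for 10 of the 25 members, and Control replicate 3 the lowest for 11. Among FGFR1-CKO libraries, replicates 3 and 4 were each the highest for 11 members. The widest Control spread was that of Mmp13 (SD of log2(CPM + 1) 0.41), and the narrowest that of Timp2 (0.06). The means of other tissue markers were lower in FGFR1-CKO as well: the marker means of pericytes and smooth muscle differed by -0.69, of tendon and periosteum by -0.69, of marrow stroma and fat by -0.61, of chondrocytes by -0.55, of endothelium by -0.50 and of monocytes and macrophages by -0.42. The markers listed for these means were 5 of 9, 3 of 8, 6 of 9, 2 of 11, 9 of 12 and 3 of 12, and no marker of T and NK cells or of skeletal muscle was listed. Their part in the changes of the proteases was not tested.

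**Figure D4:**
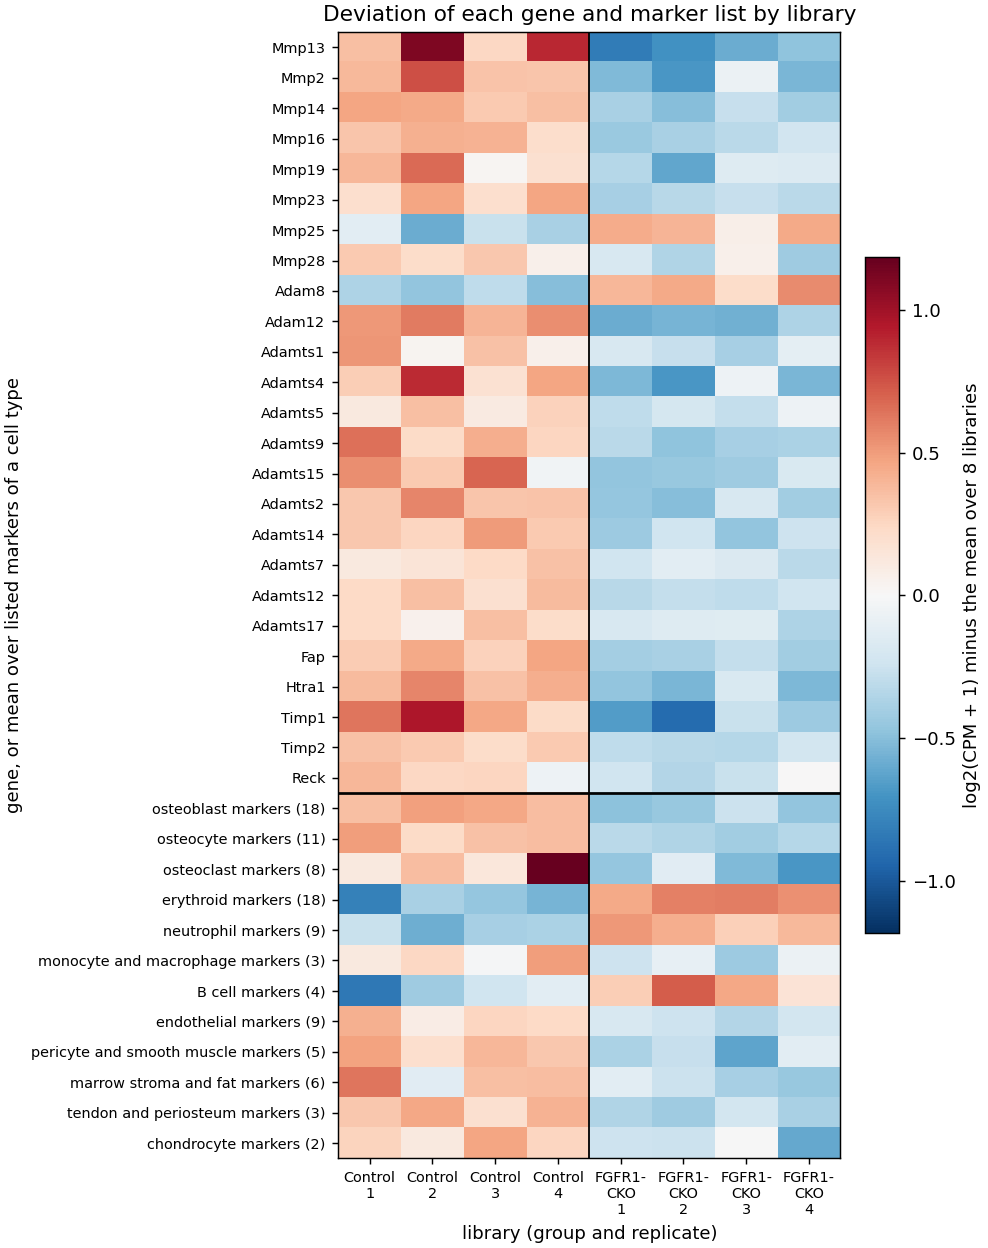
Deviation of log2(CPM + 1) from its mean over the 8 libraries, for each gene (top) and for the mean of each list of cell type markers with the number listed (bottom); red is above and blue below the mean. Adam8 and Mmp25 are blue in the 4 Control columns and red in the 4 FGFR1-CKO columns, like the neutrophil, erythroid and B cell rows, and Mmp13 is darkest in Control replicates 2 and 4.

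Promoter sequence was examined for the motifs of factors that textbooks tie to collagenase genes: the RUNX core ACCACA, bound by the osteoblast factor Runx2, the AP-1 motif TGANTCA, bound by Fos and Jun proteins, and the cyclic AMP response element TGACGTCA. RefSeq promoters (GRCm38.p6) from 250 bases before to 50 after a start site were searched on both strands. They were matched for 16 members, with 17 promoters; Mmp2, Mmp16, Mmp19, Adam12, Adamts4, Adamts5, Adamts15, Adamts7 and Fap had no entry. The 250 bases before the start site are shown for 2 collagenases that fell and carry a match (Mmp13 at chr9:7272264-7272513, plus strand, and Mmp14 at chr14:54431348-54431597, plus strand), for the inhibitor with the largest decrease (Timp1 at chrX:20869916-20870165, plus strand) and for the protease with the largest increase (Adam8 at chr7:139992563-139992812, minus strand). Capitals mark the motif matches.
Mmp13: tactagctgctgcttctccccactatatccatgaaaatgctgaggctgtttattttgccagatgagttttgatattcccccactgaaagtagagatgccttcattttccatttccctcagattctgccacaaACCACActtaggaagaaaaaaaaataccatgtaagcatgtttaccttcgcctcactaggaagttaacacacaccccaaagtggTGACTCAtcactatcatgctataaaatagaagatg
Mmp14: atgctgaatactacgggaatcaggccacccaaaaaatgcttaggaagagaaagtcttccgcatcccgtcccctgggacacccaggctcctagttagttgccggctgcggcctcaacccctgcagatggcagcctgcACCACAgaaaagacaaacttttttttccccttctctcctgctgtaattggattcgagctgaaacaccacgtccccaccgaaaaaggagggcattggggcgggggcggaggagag
Timp1: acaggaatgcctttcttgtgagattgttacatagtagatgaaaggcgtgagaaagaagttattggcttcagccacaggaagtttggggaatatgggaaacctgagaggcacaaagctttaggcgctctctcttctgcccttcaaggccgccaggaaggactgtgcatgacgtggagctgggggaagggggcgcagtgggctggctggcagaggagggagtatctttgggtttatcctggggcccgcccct
Adam8: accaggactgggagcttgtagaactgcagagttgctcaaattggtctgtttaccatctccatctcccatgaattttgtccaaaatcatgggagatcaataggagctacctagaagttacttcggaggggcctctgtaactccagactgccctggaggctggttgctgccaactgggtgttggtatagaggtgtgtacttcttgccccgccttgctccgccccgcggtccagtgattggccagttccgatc

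Mmp13 was the only member with both kinds of match, ACCACA starting 118 bases and TGACTCA starting 35 bases before the start site. Mmp14 held ACCACA 114 bases before its start site. Mmp23 held it on the minus strand 177 bases before, and Htra1 on the minus strand 39 bases after. The RUNX core was thus in 4 of the 16 members, and in 16.7% of all 32544 promoters and 12.8% of the promoters of listed genes. The AP-1 motif was in 1 member, and in 7.79% of all promoters. The cyclic AMP response element was in none, and in 1.80% of all promoters. A match is a description of letters in this window and shows no binding.

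Of a wider list of 29 factors known to act on protease genes, not all of which bind these motifs, 7 were in the table. Of these, 5 fell and 2 did not pass (4 and 3 without both libraries that stood apart). Their median log2 fold change was -0.56 and every value was below 0. Among all 1994 listed genes, 38.4% fell by the same rule, the median was -0.43 and 1265 genes were below 0. Fosb (-1.70) and Jun (-0.56), which form AP-1, and the early response factor Egr1 (-0.95) fell. Sp7, an osteoblast factor, fell (-0.68), and so did Zfp36l1 (-0.54), which binds AU-rich messages and speeds their decay. Runx2 went from 196 ± 3.94 to 149 ± 10.8 CPM (SD, n = 4 each), a log2 fold change of -0.40 (limma adjusted p = 0.00026) that did not pass the fold threshold.

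Among 25 ligands and receptors known to raise or lower protease genes, 13 were listed. Of these, 10 fell and 3 rose (8 and 3 without both libraries that stood apart), where 38.4% of all listed genes fell and 36.6% rose. The inflammatory ligands Osm (1.55), Il1b (1.07) and Tnf (0.52) rose, whereas the receptors Osmr (-0.72) and Il1r1 (-0.56) fell. The other listed ligands, Fgf1 (-0.79), Tnfsf11 (-0.63) and Tgfb3 (-0.59), fell as well. Osm went from 6.00 ± 0.607 to 19.6 ± 3.44 CPM (SD, n = 4 each) and Il1b from 15.1 ± 2.62 to 32.7 ± 5.11 CPM (SD, n = 4 each), in the libraries where neutrophil markers were higher. The collagen receptor Ddr2 (-0.83), the parathyroid hormone receptor Pth1r (-0.65) and the receptor Fgfr2 (-0.54) fell with Fgfr1. Tnf, Osmr, Il1r1, Fgf1, Tnfsf11 and Tgfb3 were named after their values were seen.

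Of 71 genes of other protease systems 27 were in the table, and 20 fell, 2 rose and 5 did not pass, with a median log2 fold change of -0.64, in a table where 38.4% of genes fell and 36.6% rose. Without both libraries that stood apart, 16 fell and 2 rose. Those that rose were Ctse (0.99), an aspartic protease of blood and immune cells, and Plaur (0.75), the urokinase receptor of myeloid cells. Among the other cathepsins, Ctsk, the main collagenase of osteoclasts, fell (-0.92), and Ctsl (-0.44) and Ctsw (-0.38) did not pass; these were named after their values were seen. Serpinf1, a collagen-binding serpin whose loss causes brittle bones in people, fell most (-1.37). Bmp1 (-0.65), which removes the carboxy-terminal propeptide of procollagen, and Phex (-0.62), an osteocyte endopeptidase, fell, as did Htra3 (-0.84), a relative of Htra1. Of 17 ADAMTS-like and glycan-degrading genes, 7 were listed, of which 5 fell and 2 did not pass (4 and 3 without both libraries that stood apart), with a median of -0.63. Cemip, which degrades hyaluronan, fell from 56.0 ± 3.74 to 28.8 ± 1.25 CPM (SD, n = 4 each; -0.93). Sulf1, an enzyme that trims sulfate from heparan chains, fell (-0.73), and its relative Sulf2 did not pass (-0.47).

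Transcripts of the proteins that these enzymes cut were lower too, and protein was not measured. Over all 1994 listed genes, 38.4% fell, the median log2 fold change was -0.43 and 1265 genes were below 0. Of 37 substrates 27 were listed. Of these, 24 fell and 3 did not pass (22 and 5 without both libraries that stood apart). Their median log2 fold change was -0.79 and every value was below 0. Examples were Spp1 (-1.13), the bone matrix protein osteopontin, Ibsp (-0.68), bone sialoprotein, Dcn (-0.77), the collagen-binding proteoglycan decorin, the collagen chains Col6a2 (-1.12) and Col6a3 (-1.09), and the cell surface proteoglycan Sdc1 (-0.79). Spp1, Ibsp, Col1a1, Col1a2, Sparc and Postn are also in the osteoblast list, and the substrates counted here include the inhibitor Timp1, itself a member.

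The genes closest to a member in profile were found by the root mean square difference of log2(CPM + 1), each gene centred on its mean over the 8 libraries. For Mmp13 they were P4ha3 (0.216), Spp1, Plekhg4, Col6a3 and Cthrc1, where the median of all genes was 0.541. For Mmp14 they were Scarf2 (0.0532), Cd276, Adgra3, Clip3 and Dpysl3, with a median of 0.267. For Adam8 they were Slc16a3 (0.0490), Dgat1, St3gal5, Cdc7 and Plaur, with a median of 0.641. These are descriptions over 8 libraries that share 1 difference between groups.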

How the data were processed

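Bulk RNA-seq of flushed femoral cortical bone (ribosomal RNA removed with RNase H, random-primed, paired reads, per the labels' protocols) was compared between 4 Control and 4 FGFR1-CKO libraries. Replicate numbers follow accession order and pair nothing. The labels give no batch or sex and do not tie each library to its own mouse, so p-values measure the spread between these libraries, which may be technical.

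The submitters' processing notes list, without roles, DESeq2, edgeR, RSEM, STAR 2.7.9a, Subread 2.0.1, featureCounts and cutadapt, and the mm10 build. Use of strand is not given in the sources used here, so reads of genes overlapping on the other strand cannot be told apart. The authors deposited CPM per library, whole reads divided by the library total without further scaling, as the values show. Beside it stand, per the file headers, the authors' mean normalized count over all libraries (a signal), the authors' log2 fold changes with a test score, their p-values and their ratio of mean CPM. Other sheets hold gene lists. A total that turned 100.0% of CPM values into whole reads within 0.001 was found for each library, and size factors were recovered from the mean normalized counts. No library was a duplicate of another, as chi-square per degree of freedom was at least 4.70 for each pair of a group.

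Groups were compared with limma 3.58.1 in R 4.3.3 (trended eBayes) on log2(CPM + 1), with genotype as sole term, fitted on all 1994 genes with Benjamini-Hochberg adjustment over them and 2-sided. A gene rose or fell at adjusted p under 0.05 and a log2 fold change at or beyond 0.5 in either direction. The log2(CPM + 1) scale understates the change of low genes. Single values were compared by exact 2-sided permutation over the 8 libraries. The fit was tested on simulated data in which most genes were unchanged. That test does not cover a table of genes kept because they differed. Exon lengths and positions are from GENCODE M21 (mm10), in which all 25 members were found. The members, gene lists, marker lists and tests were chosen with earlier results of these data known. Named were Fgfr1, all members, up to 6 genes of each pathway list and up to 4 of each marker list by smallest adjusted p, and the 5 genes closest in profile to Mmp13, Mmp14 and Adam8. Alternatives were size factors, other pseudocounts (0.5 and 5), a minimum mean of 10 CPM, eBayes without trend, left-out libraries and subtraction of the osteoblast mean.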

Additional observations from a re-analysis of the deposited data

Results flagged for a closer look

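In 5 of 52 groups of 4 libraries (25 members and Fgfr1, 2 groups each), the highest or lowest library lay far from the other 3 for the range of the group. Chance alone gives this in about 1 in 20 such groups. Mmp2 and Adamts2 stood out through Control replicate 2, at 555 and 408 CPM. Mmp25 stood out through FGFR1-CKO replicate 3, at 89.5 CPM, the lowest of its group. Adam12 and Adamts15 stood out through FGFR1-CKO replicate 4, at 86.2 and 16.2 CPM, each the highest of its group. Each of these members kept its call when any 1 library was left out: over those fits the log2 fold change was -1.04 to -0.81 for Mmp2, -0.85 to -0.72 for Adamts2, 0.60 to 0.77 for Mmp25, -1.09 to -1.01 for Adam12 and -0.90 to -0.65 for Adamts15.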

How the results depend on the processing

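Size-factor scaling lowered the median of the table by 0.11 and raised the share of falls among calls from 51.2% to 64.0%; 23 members then fell and 2 rose, against 58.0% and 32.6% of the table, because the 6 members short of the fold threshold crossed it. With log2(CPM + 5), Mmp19 (-0.47) and Adamts12 (-0.48) missed the fold threshold and 15 members fell. The count that fell was 17 to 20 when 1 library was left out, as Adamts1, Mmp28 and Reck crossed the threshold, and the count that rose was 2 in each of those fits. No member changed direction under size factors, another pseudocount, the low-value filter, eBayes without trend or a left-out library. After subtraction of the osteoblast mean 0 members fell, Fgfr1 was at -0.068, and 17 members had the opposite sign: Mmp14 0.042, Mmp16 0.15, Mmp19 0.19, Mmp23 0.17, Mmp28 0.38, Adamts1 0.35, Adamts5 0.41, Adamts9 0.049, Adamts15 0.074, Adamts2 0.046, Adamts14 0.14, Adamts7 0.40, Adamts12 0.25, Adamts17 0.40, Fap 0.087, Timp2 0.24 and Reck 0.41. By construction this adds 0.83 to each gene on average. Between 0 and 1 members were lower on that scale when 1 library was left out, with 0 on leaving out Control replicate 2 or FGFR1-CKO replicate 1. No paired analysis was possible because the labels give no replicate numbers. The planned count models (edgeR, DESeq2) were not run, since the files hold CPM of selected genes. Depth limits Mmp19 (60 to 181 reads) and Mmp28 (65 to 129 reads) most.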

Other observations

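The deposited workbook also holds gene lists, as symbols without values, from Ocy454 cells, an osteocyte-like mouse cell line. One list of 627 genes shared 183 genes with the bone table (29.2% of the list and 9.18% of the table). Of these 183 genes 170 were lower in FGFR1-CKO bone, where 1265 of all 1994 listed genes were lower. The list of 627 genes held 8 of the 25 members: Mmp19, Adam12, Adamts1, Adamts9, Adamts2, Adamts14, Adamts7 and Adamts17. The lists that the authors headed "Up with BGJ" and "up with BGJ" were merged (192 genes, 80 shared) and held Adam12, Adamts9 and Adamts17. The list headed "Up with FGF2" (231 genes, 41 shared) held Mmp19 and Adamts7. All 8 members were lower in FGFR1-CKO bone, as were 76 of the 80 genes shared with the merged BGJ lists and 39 of the 41 shared with the FGF2 list. Of all 25 members 23 were lower. The 8 members include no collagenase, serine protease or inhibitor, and neither Adam8 nor Mmp25.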
